A study of Rattus norvegicus with 12 samples.

Results

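The nuclear-encoded subunits of mitochondrial oxidative phosphorylation were examined in rat fibroblast-like synoviocytes (FLS). Members were chosen by gene name alone. The rule took Ndufa, Ndufb, Ndufc, Ndufs or Ndufv followed by a number and nothing else, and Sdhb, Sdhc, Sdhd, Cycs and Cyc1. It also took names beginning with Uqcr, Cox4 to Cox8 or Atp5. The rule matched 92 of the 22442 gene records. Of the names matched, 11 had 2 records, and for these the record of higher mean was kept, which left 81 members. They comprised 35 names of complex I, 3 of complex II, 9 of complex III (Cyc1 included), 16 of complex IV, 17 of complex V and cytochrome c itself (Cycs). Of the 81, 76 had a mean of at least 1 FPKM (fragments per kilobase of transcript, scaled to the mapped fragments of the library) over the 12 libraries and were tested. The other 5, Ndufa13, Ndufs6, Cox6a2, Cox6b2 and Cox8b, lay below that level.

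FLS were grown from synovial tissue of male Sprague-Dawley rats in which adjuvant arthritis had been raised with complete Freund's adjuvant, so that the cells of every group, the untreated one included, came from arthritic joints. Third-passage cells were kept for 12 h in DMEM alone (FCA) or with taurochenodeoxycholic acid (TCDCA), a taurine-conjugated bile acid, at 0.1 µM (AT01), 1 µM (AT1) or 10 µM (AT10). Each of the 4 groups had 3 poly(A) RNA-seq libraries. No source used here states that the 3 libraries of a group came from separate animals, so a p-value measures the spread between these libraries. In such bulk samples, fewer cells of a type and less RNA per cell cannot be told apart.

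Oxidative phosphorylation takes place in the inner mitochondrial membrane. Complex I (NADH dehydrogenase) and complex II (succinate dehydrogenase) pass electrons through ubiquinone to complex III (the cytochrome bc1 complex), cytochrome c carries them to complex IV (cytochrome c oxidase), and complex V (ATP synthase) uses the resulting proton gradient to make ATP. Most subunits are encoded in the nucleus and a small core is encoded by mitochondrial DNA. Synovial fibroblasts of inflamed joints are known for high glycolysis, and the balance between glycolysis and respiration is one feature by which they are described.

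The libraries carried the fibroblast genes that were looked for. Vim ranged from 1940 to 3080 FPKM, Col1a1 from 571 to 1070 FPKM and Thy1 from 112 to 158 FPKM, and 7 of 8 fibroblast markers had a record. Several markers of other cell types were at or near 0: Csf1r and Adgre1 of macrophages reached 0.26 and 0.03 FPKM, the 4 endothelial markers reached at most 0.12 FPKM, and Myog and Ckm of skeletal muscle reached 0.03 and 0.12 FPKM. Other markers on the same lists were present, with means of 13.8 FPKM for Cd14 and 2.13 FPKM for Cd68 (macrophages), 13.0 FPKM for Des (muscle), and 33.1, 1.87 and 1.62 FPKM for Fabp4, Adipoq and Plin1 (adipocytes). Thy1 was lower in AT10 and in AT1 than in FCA at an unadjusted limma p of 0.0237 and 0.0107, which did not pass adjustment (adjusted p = 0.348 and 0.42). Fap, another fibroblast marker, was higher in both (log2 fold change 0.28 and 0.33, limma adjusted p = 0.297 and 0.42). Of the adipocyte markers, Plin1 was lower in AT10 (-0.31, limma adjusted p = 0.389) and Adipoq in AT1 (-0.60, limma adjusted p = 0.42), each at an unadjusted p under 0.05. Col1a1 was also lower in AT1 under the same limit (log2 fold change -0.20) and did not pass adjustment. Of the 7 fibroblast markers, 6 were below 0 in AT10 (median log2 fold change -0.27), and Fap alone was above it. In AT1, 5 of the 7 were below 0 (median -0.05). The part of cell state or purity in the results that follow was not tested.

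The members were among the abundant transcripts of FLS. Their mean level had a median of 62.4 FPKM, compared with 6.51 FPKM over all 11611 records tested, and 68 of the 76 reached 10 FPKM and 18 reached 100 FPKM. The members tested held between 2.15% and 2.5% of all FPKM in a library. Complex IV had the highest median level of its members, 144 FPKM, followed by complex V with 81 FPKM and complex III with 67.7 FPKM. Complex I had 45 FPKM and complex II 40.8 FPKM. The name rule leaves out Sdha of complex II, which had a mean of 62.6 FPKM. The order of complexes I and II thus holds only for the members of the rule. The highest member of all was Atp5b, the catalytic beta subunit of ATP synthase, with 636 FPKM, and the lowest one tested was Atp5s with 1.91 FPKM.

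**Figure D1:**
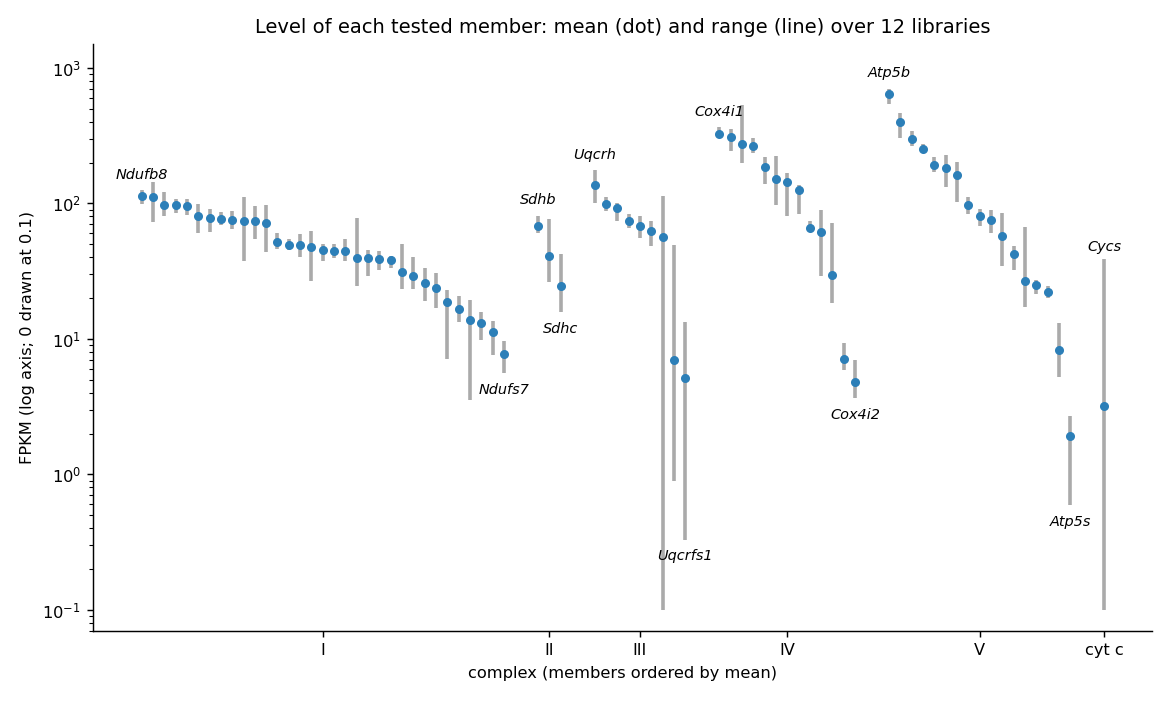
Mean FPKM of each tested member over 12 libraries (dots, log axis) with the range from the lowest to the highest library (grey lines), by complex. Most members have means between 10 and 636 FPKM, while Uqcrb and Cycs run from 0 (drawn at 0.1) to 113 and 38.5 FPKM.

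Within each complex the extremes were as follows. Ndufb8, an accessory subunit of the membrane arm, was the highest of complex I (114 FPKM) and Ndufs7, a core subunit of the peripheral arm, the lowest (7.69 FPKM). Sdhb, the iron-sulfur subunit, was the highest of complex II (68.1 FPKM) and Sdhc, a membrane anchor, the lowest (24.7 FPKM). In complex III these were Uqcrh, the hinge protein (137 FPKM), and Uqcrfs1, the Rieske iron-sulfur protein (5.13 FPKM). In complex IV, Cox4i1 (326 FPKM) was the highest and its isoform Cox4i2 (4.82 FPKM) the lowest of those tested.

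The isoform pairs of complex IV lay on 1 side throughout. Cox4i1, the ubiquitous form, had 326 FPKM, compared with 4.82 FPKM for Cox4i2, the form known from lung and from low oxygen. Cox7a2, the liver form, had 152 FPKM and Cox7a1, the heart and muscle form, 7.13 FPKM under its own name. Cox6a1 (275 FPKM) and Cox6b1 (265 FPKM) stood beside muscle-type Cox6a2 (0.318 FPKM) and testis-type Cox6b2 (0.136 FPKM), and Cox8a (29.4 FPKM) beside Cox8b (0.0275 FPKM). The first-named form was the more abundant one in each of the 5 pairs, in all 12 libraries. A record with a provisional name counted as Cox7a1-like, LOC687508, had 10.1 to 30.4 FPKM, above the Cox7a1 record itself. Cox7b, whose testis form is not analysed here, had 144 FPKM.

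The promoters of Cox4i1, Cox7a2 and Cox7a1 are shown because these genes are the abundant and the scarce members of such pairs, and that of Ndufa10 because it had the smallest p among the members. They are RefSeq sequences of build GRCr8, from 250 bases before to 50 bases after the start of the gene, and the capitals mark the ETS letters CCGGAAG or their other-strand form CTTCCGG. Cox4i1 lies at chr19:65630133-65630432 on the plus strand, Cox7a2 at chr8:89601100-89601399 on the minus strand, Cox7a1 at chr1:94568966-94569265 on the plus strand and Ndufa10 at chr9:100489215-100489514 on the minus strand.
Cox4i1: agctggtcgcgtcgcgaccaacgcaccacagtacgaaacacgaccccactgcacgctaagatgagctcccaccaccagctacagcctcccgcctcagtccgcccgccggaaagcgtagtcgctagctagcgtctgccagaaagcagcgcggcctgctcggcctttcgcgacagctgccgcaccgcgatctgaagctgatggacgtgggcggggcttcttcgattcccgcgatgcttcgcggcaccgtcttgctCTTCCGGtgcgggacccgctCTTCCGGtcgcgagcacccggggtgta
Cox7a2: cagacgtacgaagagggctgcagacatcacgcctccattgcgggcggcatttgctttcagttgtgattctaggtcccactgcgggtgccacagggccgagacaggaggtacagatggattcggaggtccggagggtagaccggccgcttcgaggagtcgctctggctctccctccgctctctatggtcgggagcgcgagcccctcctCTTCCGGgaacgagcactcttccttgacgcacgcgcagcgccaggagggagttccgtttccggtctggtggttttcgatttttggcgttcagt
Cox7a1: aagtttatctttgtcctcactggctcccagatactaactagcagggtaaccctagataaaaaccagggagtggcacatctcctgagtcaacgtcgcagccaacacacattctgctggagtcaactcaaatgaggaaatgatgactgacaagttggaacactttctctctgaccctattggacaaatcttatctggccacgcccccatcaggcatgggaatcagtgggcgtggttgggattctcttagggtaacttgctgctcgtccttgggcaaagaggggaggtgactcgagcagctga
Ndufa10: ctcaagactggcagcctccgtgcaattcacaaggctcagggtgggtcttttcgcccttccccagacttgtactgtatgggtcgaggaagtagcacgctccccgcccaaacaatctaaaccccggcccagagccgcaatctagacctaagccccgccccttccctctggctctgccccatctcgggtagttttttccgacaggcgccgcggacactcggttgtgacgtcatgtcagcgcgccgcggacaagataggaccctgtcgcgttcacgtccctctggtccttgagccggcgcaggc
Cox4i1 held 2 copies of the ETS letters and Cox7a2 held 1, while Cox7a1 and Ndufa10 held none. Of the other isoforms, Cox8a held 2 and the abundant Cox6b1 held none, like Cox6a2, Cox6b2 and Cox8b. Cox4i2 and Cox6a1 had no promoter entry. Atp5b, the highest member of all, held none either. ETS factors of the GABP type, NRF1 and YY1 are textbook regulators of respiratory genes. Of the 81 members, 70 had a promoter entry. The ETS letters stood on either strand in 20 of the 70 (28.6%), compared with 9.22% of all 27457 promoters of the same length. The YY1 letters AAGATGGCG stood in 10 (14.3%, compared with 1.93%), and the NRF1 core letters GCGCATGC in 9 (12.9%, compared with 2.66%). At least 1 of the 3 stood in 31 members (44.3%, compared with 12.8%). The ETS and YY1 letters can overlap, since the former end in AAG and the latter begin with it. A match describes the letters only.

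Each complex was next compared across the doses by the summed FPKM of its members. Complex I summed to 1765 ± 92.7 FPKM in FCA, 1776 ± 157 in AT01, 1710 ± 95.1 in AT1 and 1644 ± 19.8 in AT10 (SD, n = 3 each). The 3 AT10 sums of complex I (1646, 1663 and 1624 FPKM) all lay below the lowest FCA sum (1664 FPKM). The closest pair differed only in its last digit. The complex I sum holds Ndufa4, today counted with complex IV, and its closeness between groups depends on that. Ndufa4 had 99.1, 75.2 and 68.7 FPKM in FCA and 88.8, 90.3 and 96.2 FPKM in AT10. Ndufa13 and Ndufs6, not tested under their own names, are not in the sum. Complex II summed to 151.3 ± 33.5 FPKM in FCA, 144 ± 19.5 in AT01, 123.3 ± 6.55 in AT1 and 116 ± 6.45 in AT10. Its groups overlapped, since the third FCA library had 114 FPKM.

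Complex III had 594.5 ± 75.5 FPKM in FCA and between 589.5 ± 84.5 (AT1) and 623 ± 94 (AT01) in the TCDCA groups. Its sums went with the single record of Uqcrb. In FCA they were 554, 682 and 548 FPKM, where Uqcrb had 0, 88 and 0 FPKM. Complex IV summed to 2050 ± 124 FPKM in FCA, 2040 ± 86.1 in AT01, 1860 ± 187 in AT1 and 1847 ± 127 in AT10. The third AT01 sum, 1940 FPKM, held 528 FPKM of Cox6a1, compared with 253 and 259 FPKM in the other AT01 libraries. Complex V had 2510 ± 45.1 FPKM in FCA, 2698 ± 303 in AT01, 2546 ± 129 in AT1 and 2466 ± 56.7 in AT10. Libraries of each TCDCA group overlapped those of FCA in complexes III, IV and V, and no test is given on such sums.

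**Figure D2:**
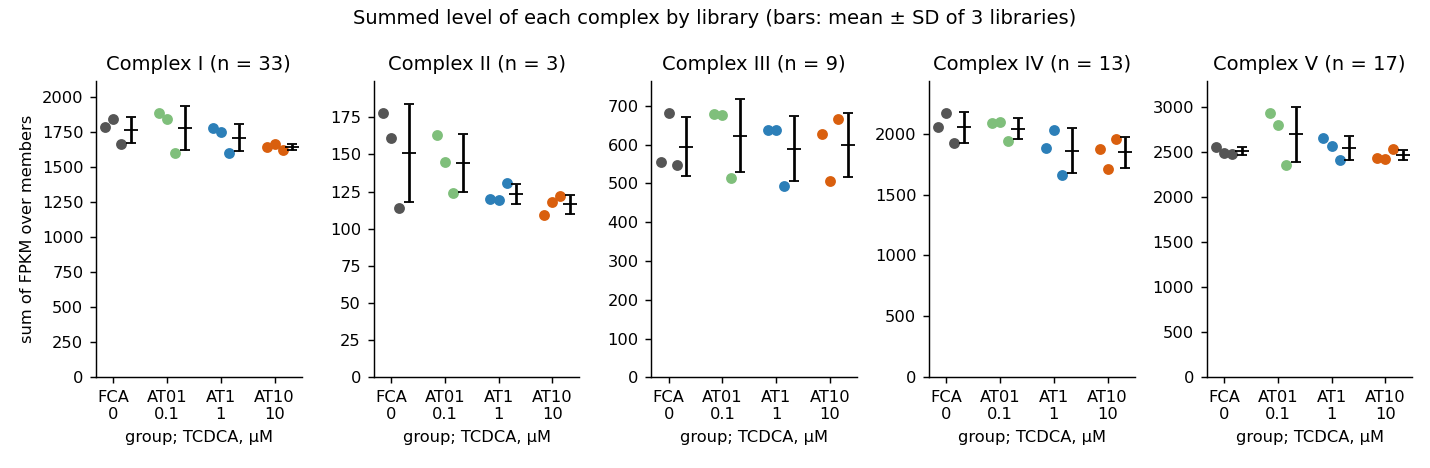
Summed FPKM of the tested members of each complex in each library (points, in the order of replicates 1 to 3) with the mean ± SD of the 3 libraries (bars), against group and TCDCA concentration in µM. Complexes I, II, IV and V have their lowest means in AT10, and complex II its widest spread in FCA (114 to 178 FPKM).

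At the highest dose, AT10 against FCA, no member was higher and 10 of 76 (13.2%) were lower at an unadjusted limma p under 0.05. Over all records the shares were 7.54% higher and 4.34% lower. After Benjamini-Hochberg adjustment over all 11611 records no member had a p under 0.05, which 0.172% of records had. The count of 10 changed with the libraries used. It was 3 without the first or without the second FCA library and 16 without the third FCA library. Without AT10 replicates 1, 2 and 3 it was 6, 4 and 5. The shares of all records with a library left out are not given here or below, so such shifts cannot be read as particular to the members. The 10 lower members were Ndufs5, Ndufs8 and Ndufb8 of complex I (3 of 33), Sdhd of complex II (1 of 3), Uqcrfs1 and Uqcr11 of complex III (2 of 9), Cox7a2, Cox6b1 and Cox5b of complex IV (3 of 13) and Atp5sl of complex V (1 of 17). The median log2 fold change of the 76 was -0.08, compared with -0.01 over all records, and 53 of 76 were below 0, compared with 51.7% of all records. The 3 AT10 libraries lay below all 3 FCA libraries for 12 members (9.18% of records) and above them for none (10.7% of records).

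The lower members of complex I differed by small amounts with little spread. Ndufs5, an accessory subunit, had 102, 101 and 101 FPKM in FCA and 88.4, 83.6 and 92 FPKM in AT10. All AT10 values lay below all FCA values (log2 fold change -0.20 ± 0.06 SE, limma adjusted p = 0.279). Ndufb8 had 121, 118 and 120 FPKM in FCA and 108, 108 and 105 FPKM in AT10, again without overlap (-0.16 ± 0.05, limma adjusted p = 0.31). Ndufs8, a core iron-sulfur subunit, had 55.3, 59.9 and 53.3 FPKM in FCA and 49.7, 46.5 and 47.6 FPKM in AT10 (-0.22 ± 0.07, limma adjusted p = 0.303).

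In complex IV, the difference of Cox6b1, a subunit of the intermembrane face, was of the same size. It had 286, 301 and 269 FPKM in FCA and 252, 255 and 257 FPKM in AT10 (log2 fold change -0.16 ± 0.06 SE, limma adjusted p = 0.389). Cox7a2 had 184, 185 and 156 FPKM in FCA and 157, 107 and 119 FPKM in AT10. Its groups overlapped by 1 FPKM (-0.47 ± 0.16, limma adjusted p = 0.362). Cox4i1, the most abundant member of complex IV, had 339, 367 and 327 FPKM in FCA and 314, 301 and 317 FPKM in AT10, without overlap and with an unadjusted limma p of 0.0623.

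At the middle dose, AT1 against FCA, 2 members were higher (5.56% of records) and 5 were lower (5.44% of records) at an unadjusted limma p under 0.05. The higher ones were Ndufs1 and Uqcrc2, and the lower ones Ndufs3, Sdhd, Uqcrq, Cox6a1 and Atp5sl. The count of 7 was 4 without the first or the second FCA library or the third AT1 library, and 11 without the third FCA library. These shares, 2.63% and 6.58% of the members, lay below and near the background. No member passed adjustment (0.0947% of records did), the median was -0.05, compared with 0.02 over all records, and 46 of 76 members were below 0 (46.7% of records). The AT1 libraries lay below every FCA library for 11 members (10.0% of records) and above them for 4 (9.87% of records).

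Ndufs1, the largest subunit of complex I and part of its electron input module, had the smallest p among the members that were higher in AT1. It had 35.2, 33.5 and 35.7 FPKM in FCA and 40.8, 40.7 and 40.8 FPKM in AT1 (log2 fold change 0.22 ± 0.05 SE, limma adjusted p = 0.402). It had 35.9, 40.5 and 39.6 FPKM in AT01 and 35.6, 38 and 38.6 FPKM in AT10, so that 8 of the 9 TCDCA libraries lay above every FCA library. The first AT01 library did so only just (35.9 FPKM, compared with 35.7 FPKM). Uqcrc2, a core protein of complex III, had 72.6, 69.6 and 65.2 FPKM in FCA and 78.3, 74.2 and 78.9 FPKM in AT1. It also had 8 of 9 TCDCA libraries above every FCA library (AT1: 0.16 ± 0.06, limma adjusted p = 0.451).

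Cox6a1 had 292, 312 and 252 FPKM in FCA and 230, 235 and 199 FPKM in AT1, without overlap (log2 fold change -0.36 ± 0.11 SE, limma adjusted p = 0.42). In AT01 it had 253, 259 and 528 FPKM, and the third of these was the highest of all 12 libraries. Uqcrq, a small subunit of complex III, had 74.1, 80.8 and 70.2 FPKM in FCA and 66.3, 64.4 and 58 FPKM in AT1. For Uqcrq 8 of 9 TCDCA libraries lay below every FCA library, 1 of them only just (AT1: -0.25 ± 0.08, limma adjusted p = 0.428).

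At the lowest dose, AT01 against FCA, 1 member was higher (Cox7a1, 2.57% of records) and 2 were lower (Ndufa10 and Atp5sl, 4.03% of records) at an unadjusted limma p under 0.05. No member passed adjustment (0.0947% of records did). The median log2 fold change was 0.01, compared with 0.002 over all records, and 36 of 76 members were below 0 (49.6% of records). The count of 3 was 5 without the third FCA or the first AT01 library and 8 without the third AT01 library. Groups did not overlap for 5 higher members (5.97% of records) and 2 lower members (8.06% of records).

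**Figure D3:**
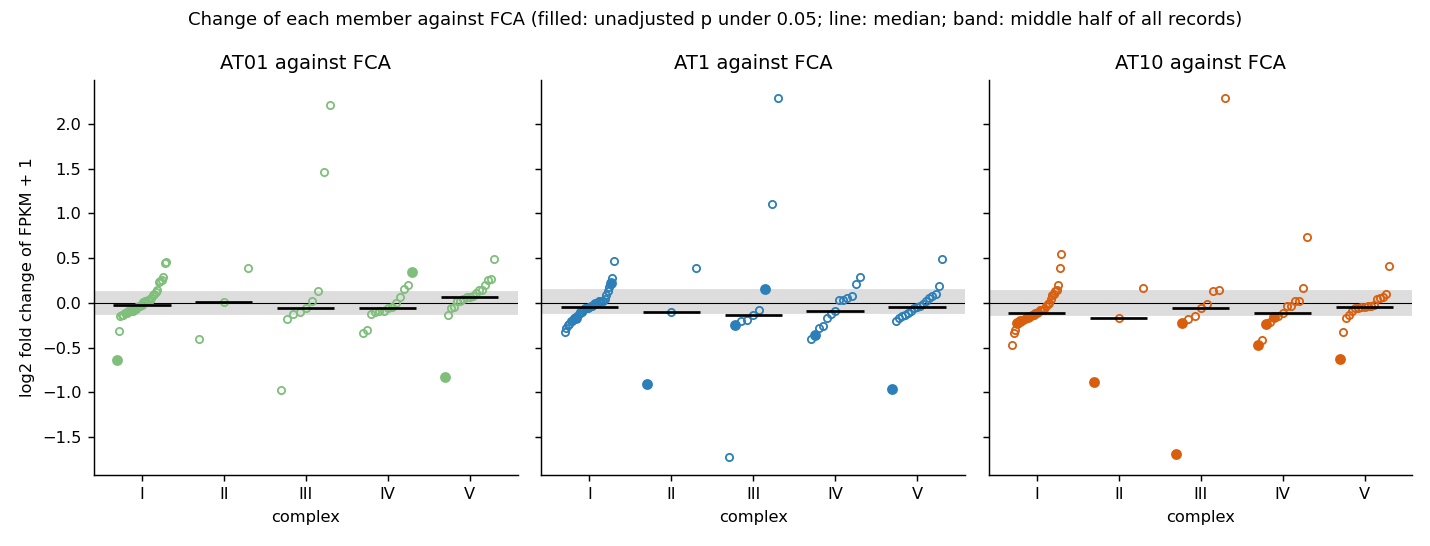
Log2 fold change of FPKM + 1 of each member against FCA at 3 TCDCA doses, by complex (filled points: unadjusted limma p under 0.05; black lines: median of the complex; grey band: middle range of all 11611 records, from the lower to the upper quartile). All complex medians lie within the band in AT01, all but that of complex III (-0.13) in AT1, and all but that of complex II (-0.17) in AT10.

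Ndufa10, an accessory subunit of complex I, had the smallest p of any member. It had 30.6, 30 and 28.8 FPKM in FCA and 18.8, 19.3 and 18.3 FPKM with TCDCA at 0.1 µM, without overlap (log2 fold change -0.64 ± 0.06 SE, unadjusted limma p = 7.96e-05, adjusted p = 0.077, exact permutation p = 0.1, the smallest that 3 against 3 allows). Tested with every record, or only with records of a mean of at least 10 FPKM, the adjusted limma p was 0.0382 and 0.0415. In AT1 it had 26.7, 30.3 and 19.1 FPKM and in AT10 29, 19.6 and 16.9 FPKM. Single libraries of the 2 higher doses thus lay at the level of FCA and others at that of AT01.

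Atp5sl was the 1 member lower at all 3 doses at an unadjusted limma p under 0.05. Although its name places it with complex V, this gene is known as DMAC2, an assembly factor of complex I, and is no subunit of ATP synthase. It had 12.2, 13.1 and 12 FPKM in FCA, 6.12, 7.26 and 6.43 FPKM in AT01, 5.58, 6.97 and 5.22 FPKM in AT1, and 5.94, 12 and 6.34 FPKM in AT10. The second AT10 library stood at the FCA level and the other 8 TCDCA libraries lay below every FCA library. The log2 fold changes were -0.82 ± 0.09 in AT01 (limma adjusted p = 0.0937), -0.96 ± 0.11 in AT1 (limma adjusted p = 0.111) and -0.62 ± 0.25 in AT10 (limma adjusted p = 0.417). Without the second AT1 library the adjusted limma p in AT1 was 0.0334. The 3 comparisons share the FCA libraries.

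Cox7a1 had 5.93, 5.88 and 6.59 FPKM in FCA and 9.32, 7.74 and 7.15 FPKM in AT01 (log2 fold change 0.34 ± 0.11 SE, limma adjusted p = 0.72). It had 8 of 9 TCDCA libraries above every FCA library. The provisional record LOC687508, chosen after values were seen, had a log2 fold change of -0.002 ± 0.38 SE in AT01. No tested member had all 9 TCDCA libraries on 1 side of FCA, which 0.956% of records had above and 1.9% had below. For 8 of 9 no such share is given.

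Sdhd, a membrane anchor of succinate dehydrogenase, had the largest differences in complex II. It had 76.5, 69.7 and 32.8 FPKM in FCA, 64.9, 31.8 and 36.1 FPKM in AT01, 29.8, 29.7 and 28.7 FPKM in AT1, and 26.3, 30.7 and 33.1 FPKM in AT10. A high level of 64.9 to 76.5 FPKM was seen in 3 libraries and a level of 26.3 to 36.1 FPKM in the other 9. The log2 fold change was -0.91 ± 0.32 in AT1 (limma adjusted p = 0.431) and -0.88 ± 0.33 in AT10 (limma adjusted p = 0.401). Without the third FCA library, the low one, the change in AT1 was -1.28 (limma adjusted p = 0.0209). Sdhc, the other anchor, had 27.8, 15.7 and 17.5 FPKM in FCA and 16.3, 26.4 and 25.2 FPKM in AT10 (0.16 ± 0.27, limma adjusted p = 0.808). Sdha, the catalytic subunit, which the name rule leaves out, ranged from 57.3 to 66.9 FPKM over all 12 libraries.

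**Figure D4:**
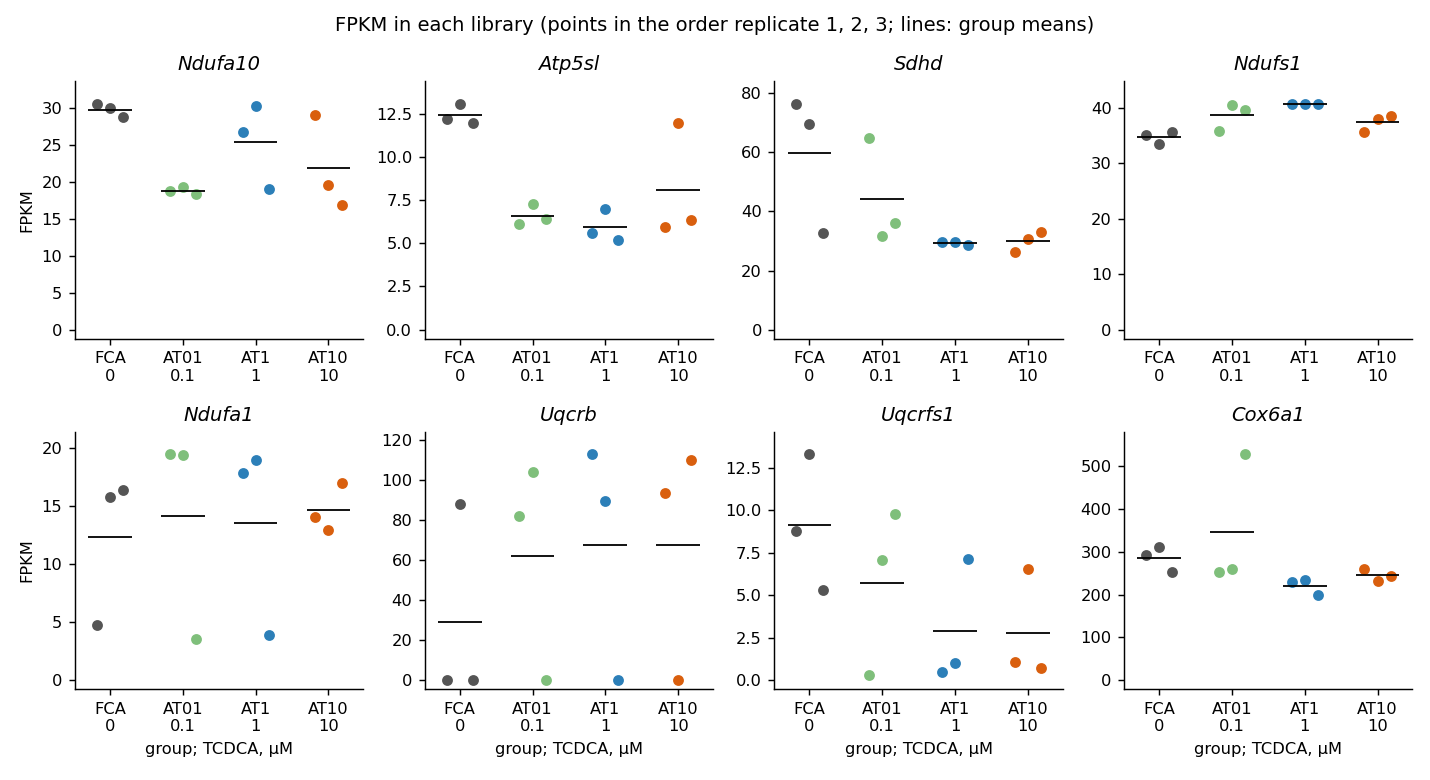
FPKM of 8 members in each library (points, in the order of replicates 1 to 3) by group and TCDCA concentration in µM, with group means (lines). Ndufa10 is lower in all 3 AT01 libraries and Atp5sl in 8 of 9 TCDCA libraries. Ndufa1, Uqcrb and Uqcrfs1 fall at 2 separate levels, both found within single groups. All FCA libraries of Uqcrfs1 and all AT10 libraries of Ndufa1 are at the higher level.

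Between doses, AT10 against AT1 had 3 higher members (Ndufa4, Ndufb6 and Ndufs3, 2.72% of records) and 2 lower ones (Ndufa9 and Atp5a1, 3.74% of records) at an unadjusted limma p under 0.05. AT10 against AT01 had 0 higher (2.14% of records) and 3 lower (Ndufb9, Ndufc1 and Cox7a2l, 2.82% of records), and AT1 against AT01 had 0 higher (1.72% of records) and 1 lower (Ndufb9, 1.71% of records). The counts of 5, 3 and 1 were 2 to 4, 0 to 13 and 1 to 7 with 1 library left out, and the highest 2 were both reached without the third AT01 library. No member passed adjustment in the 3 comparisons, which 0.258%, 0.0689% and 0.129% of records did. Ndufa4, today counted with complex IV, had 72.3, 76.5 and 60.2 FPKM in AT1 and 88.8, 90.3 and 96.2 FPKM in AT10 (log2 fold change 0.40 ± 0.10 SE, limma adjusted p = 0.658). Ndufs3, a core subunit of complex I, was lower in AT1 than in FCA and higher in AT10 than in AT1, with 50.9 to 54.3 FPKM in FCA, 45.3 to 47.7 FPKM in AT1 and 50 to 53.7 FPKM in AT10.

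Ndufb9, of the membrane arm of complex I, had 138, 133 and 125 FPKM in AT01, 121, 104 and 103 FPKM in AT1 and 99.9, 113 and 72.8 FPKM in AT10. In FCA it spread from 74.3 to 144 FPKM, across the values of every other group. The median of the members was -0.10 between AT10 and AT01, compared with 0.00 over all records, and -0.07 between AT1 and AT01, compared with 0.02.

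The members deviated together in some libraries of the same group. In the third AT1 library 77.6% of members, and in the third AT01 library 75% of members, were below their own mean over the 12 libraries, compared with 46.6% and 55.4% of all records. In the first and second AT01 libraries only 26.3% and 22.4% of members were below it, compared with 43.8% and 45.8% of all records. The third AT01 library was the lowest of the 12 for 26 members, and the first AT01 library was the highest for 30. The libraries of AT01 therefore stood at both ends, with median deviations of 0.14, 0.13 and -0.14 (log2), and its mean lies between them. What sets these libraries apart was not tested.

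**Figure D5:**
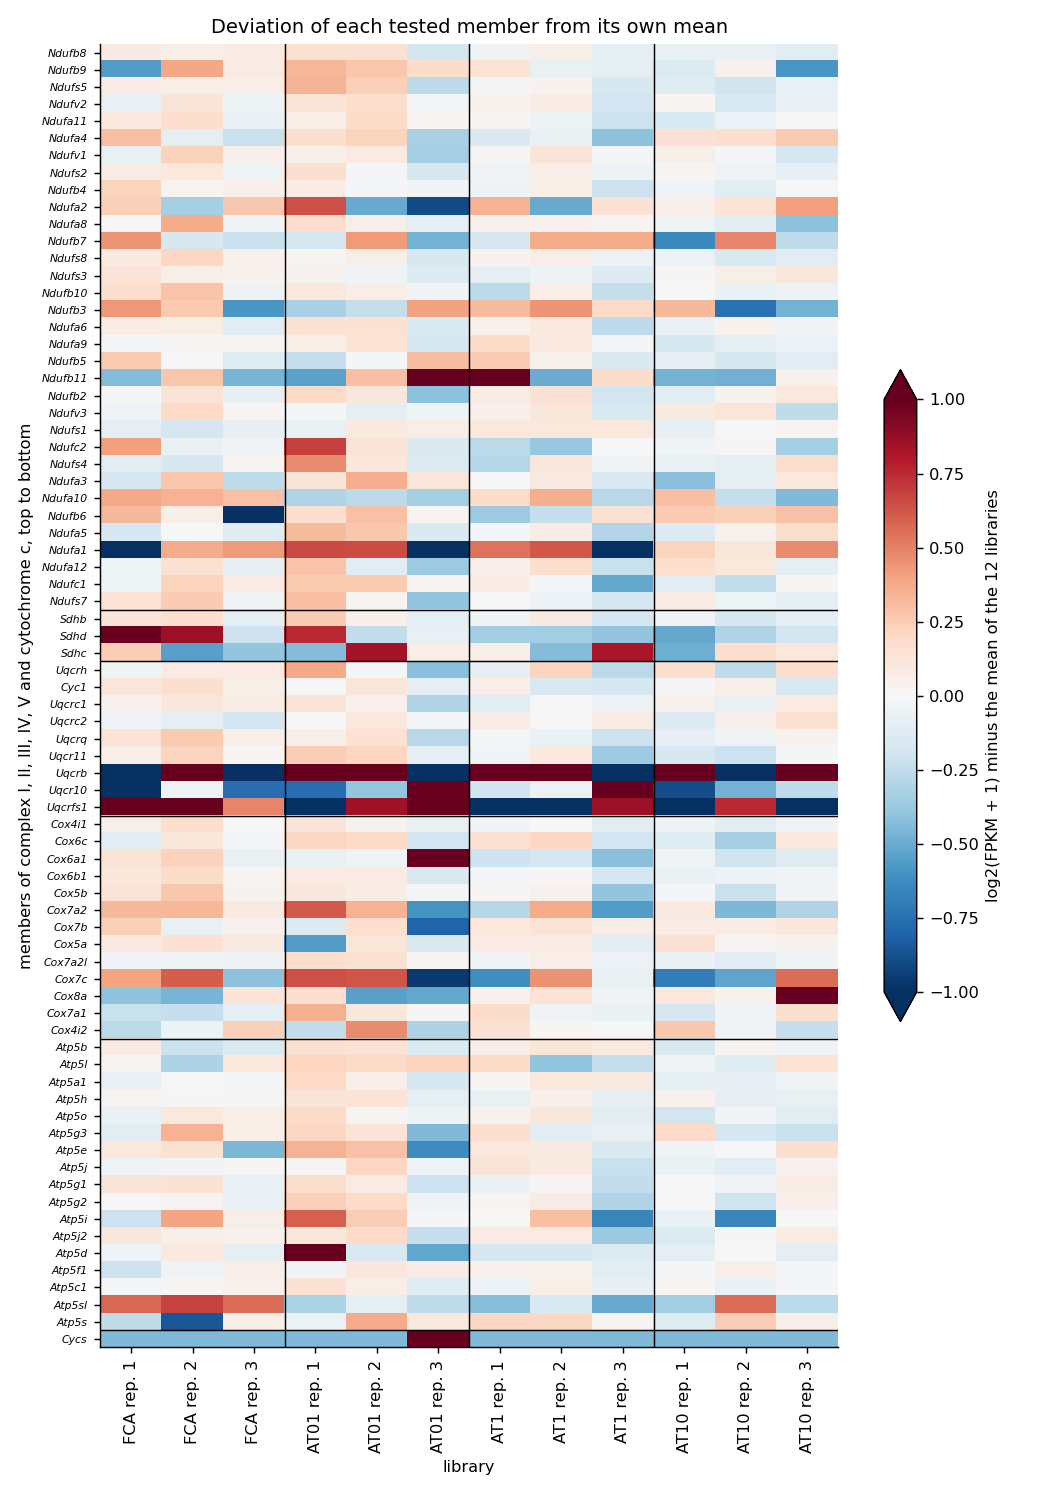
Deviation of log2(FPKM + 1) of each tested member from its own mean over the 12 libraries (red higher, blue lower; colour ends at -1 and 1), with members in rows by complex and libraries in columns by group. The columns of AT01 replicate 3 and AT1 replicate 3 are mostly blue (75% and 77.6% of members below their mean), and the first and second AT01 columns mostly red.

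The members varied about as much as other records. The median SD over the 12 libraries was 0.185 on the log2(FPKM + 1) scale, compared with 0.179 over all records. Atp5c1, the gamma subunit of ATP synthase, was the steadiest with an SD of 0.076 (20.1 to 24.4 FPKM). Isolated high values were seen for Uqcr10 (49.2 FPKM in the third AT01 library and 11.9 FPKM in the third AT1 library, 0.9 to 3.35 FPKM elsewhere), Atp5d (67.2 FPKM in the first AT01 library, 17.2 to 27 FPKM elsewhere) and Cox8a (71 FPKM in the third AT10 library, 18.5 to 31 FPKM elsewhere). Uqcr10, Atp5d and Atp5c1 were chosen after their values were seen.

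Libraries were split into 2 separate levels, with an empty stretch of at least 1 log2 unit exceeding the range of each level, for Ndufa1, Uqcrb and Uqcrfs1 (3 of 76 members, compared with 4.52% of records). The study called changes with Ballgown, at over 1 log2 unit and p under 0.05. Which members Ballgown itself would call was not tested. With the same thresholds put on limma and log2(FPKM + 1), before adjustment, Uqcrfs1 was the only member past them in AT10 against FCA (0.706% of records). It had 8.79, 13.3 and 5.3 FPKM in FCA, 0.33, 7.07 and 9.79 FPKM in AT01, 0.5, 1.03 and 7.12 FPKM in AT1, and 1.06, 6.55 and 0.7 FPKM in AT10. Every group that received TCDCA had libraries at both levels, and the second AT10 library lay above the lowest FCA library (AT10: log2 fold change -1.69 ± 0.64 SE, limma adjusted p = 0.401).

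Uqcrb, a ubiquinone-binding subunit of complex III, was listed at 0 in 5 libraries, at least 1 in each group, and at 82.1 to 113 FPKM in the other 7. A further record of the same name had 18.8 to 33.7 FPKM throughout, so the 0 values belong to 1 of 2 records. The sum of both records still lay at 2 levels. It had 26.4 to 33.7 FPKM in the 5 libraries and 101 to 145 FPKM in the other 7. Ndufa1, a small membrane subunit of complex I, had 3.56 to 4.81 FPKM in 3 libraries, 1 each of FCA, AT01 and AT1, and 13 to 19.5 FPKM in the other 9. A record with a provisional name for the same gene, LOC108348144, had 19.2 to 37.8 FPKM. How reads were divided among such records cannot be seen from FPKM.

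Cytochrome c illustrated the same limit. The Cycs record kept by the rule was listed at 0 in 11 libraries and had 38.5 FPKM in the third AT01 library. The other Cycs record had 4.88, 4.96 and 5.91 FPKM in FCA while the 6 libraries of AT10 and AT1 were listed at 0 (limma adjusted p = 0.00117 and 0.00308, no fold being given against 0), with 4.28, 0 and 7 FPKM in AT01. A record with the provisional name LOC100363502, described as somatic cytochrome c-like, was far more abundant. It had 117, 112 and 132 FPKM in FCA and 58.4, 57.9 and 62.2 FPKM in AT10 (limma adjusted p = 0.0232). Its AT1 values were 138, 130 and 56.2 FPKM and its AT01 values 69.8, 133 and 57.8 FPKM. Libraries at the level of AT10 occurred in every TCDCA group. Near-identical copies can split reads, so these values are uncertain for any one gene, and the records were chosen after the member values were known.

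Provisional names also covered members that appeared absent. Ndufa13 had at most 0.57 FPKM and Ndufs6 at most 0.69 FPKM under their own names, while LOC100911483, listed as Ndufa13-like, had 74.8 to 122 FPKM and LOC100912599, Ndufs6-like, 33.8 to 52 FPKM. Both proteins are subunits of complex I that every respiring cell is expected to use. The low values are those of the records with the plain names. The provisional records were chosen after the values were seen.

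The neighbouring gene groups of the pathway were compared in the same fits. Of 45 assembly factors, 42 were tested, and 3 were higher and 2 lower in AT10, 3 higher and 5 lower in AT1, and 1 higher and 3 lower in AT01, at an unadjusted limma p under 0.05 against FCA. Over all records the shares higher and lower were 7.54% and 4.34% in AT10, 5.56% and 5.44% in AT1, and 2.57% and 4.03% in AT01, and the same shares stand behind the lists that follow. Cox17, a copper chaperone for complex IV, was lower in AT10 and AT1 (log2 fold change -0.53 and -0.45, limma adjusted p = 0.37 and 0.413), and so was Bcs1l, which inserts the Rieske protein into complex III (-0.19 and -0.17, limma adjusted p = 0.296 and 0.428). Ndufaf7, an assembly factor of complex I, was higher in AT1 and AT01 (0.53 and 0.59, limma adjusted p = 0.42 and 0.432). Nubpl was higher in AT10 and AT1 (0.305 and 0.226, limma adjusted p = 0.312 and 0.439). In AT1 and AT01, Cox10 was lower (-0.59 and -0.58, limma adjusted p = 0.42 and 0.696). So was Ecsit (-0.27 and -0.24, limma adjusted p = 0.435 and 0.72). None passed adjustment.

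Of 15 regulators of mitochondrial biogenesis, 13 were tested and 1 was past an unadjusted p under 0.05 against FCA, Gabpa in AT10, the DNA-binding subunit of an ETS factor (log2 fold change 0.32, limma adjusted p = 0.24). Of 17 genes of pyruvate dehydrogenase and the citric acid cycle, 15 were tested and 1 was past it against FCA, Fh in AT1 (0.16, limma adjusted p = 0.428). Of 5 further subunits and partners of the complexes outside the name rule, 3 were tested, and Atpif1, the inhibitor of ATP synthase, was lower in AT10 (229, 86.2 and 134 FPKM in FCA, 74.1, 63.8 and 71.9 FPKM in AT10, -0.98, limma adjusted p = 0.377). Its FCA values were all above its AT10 values.

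The subunits encoded by mitochondrial DNA could not be set beside the nuclear ones. Of 13 such genes 4 had a record and 3 were tested. Mt-co1 had 15.3, 1580 and 0 FPKM in FCA and 10.5, 823 and 518 FPKM in AT10, and Mt-cyb was listed at 0 in 7 libraries and at 2540 FPKM in the third AT1 library. Libraries of 1 group thus lay at 0 and at 1580 FPKM, and none of the 3 genes passed adjustment.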

How the data were processed

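Poly(A) RNA of 12 FLS libraries, 3 in each of FCA, AT01, AT1 and AT10, was sequenced. According to their methods the authors aligned reads with HISAT2 2.0.4, used StringTie 1.2.4 and Ballgown 2.6.0 for expression levels, with FPKM calculated by StringTie, and the deposited values are FPKM to 2 decimals. The genome build, the strand setting and any scaling between libraries were not given in the sources used here. Read counts of single records were not used here, so the counting precision of a value is unknown. The paper lists the reads of each library, and the third AT01 library had the most. Whether depth bears on the results was not tested. Library totals of FPKM ran from 284210 to 309696.

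Values were transformed as log2(FPKM + 1), so changes of low records are understated. Records averaging 1 FPKM or more (11611) were tested with limma 3.58.1 (R 4.3.3, variance trend), 2 groups at a time, with Benjamini-Hochberg adjustment over all of them, and the fit was checked on simulated data. Two-sided exact permutation tests used SciPy 1.17.1 (smallest p 0.1). Python 3.11.15, pandas 2.3.3, NumPy 2.4.6 and Matplotlib 3.10.9 were used for the rest. Members and gene lists were chosen with earlier results of these data known. Named in the text are the highest and lowest member of each complex, those past a threshold, that of smallest p in each complex and comparison with FCA, those with all doses on 1 side of FCA or at 2 levels, cytochrome c and the isoform pairs. Others were chosen after their values were seen. The name groups hold genes now placed elsewhere (Ndufa4, Cox7a2l, Atp5s, Atp5sl). Alternatives were another pseudocount, filter, scaling, fit, test, record choice, the replicate number as a block and leaving out each library.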

Additional observations from a re-analysis of the deposited data

How the results depend on the processing

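The median change of the members and the level of each complex moved by less than the spread between libraries under every alternative tried. For the medians this spread was a pooled SD of 0.099 on the log2 scale. Every median was itself smaller than that, the largest being -0.096 in AT10 against AT01, so this limit cannot tell a kept median from 0. The medians nearest 0, in AT01 against FCA and AT10 against AT1, changed sign under 3 alternatives each. Counts of members at an unadjusted p under 0.05 moved more. The shares of all records under each alternative, or with a library left out, are not given here. The moves of these counts therefore cannot be read as particular to the members. With 1 fit over all 12 libraries, the counts were 5 in AT10 and 6 in AT01 relative to FCA, 3 in AT10 against AT1 and 2 in AT1 against AT01. An F test like that of Ballgown gave 5 for AT10 against FCA. Without a filter, AT10 against AT1 had 8, and with a mean of at least 10 FPKM, AT01 against FCA had 1. Under both filters 1 member, Ndufa10, passed adjustment in AT01 against FCA. With FPKM summed over records of a name, Cycs was -2.64 in AT10 and -2.64 in AT1 against FCA, and as the group values there are 0 these are no folds. It was then the 1 member past adjustment in each (limma adjusted p = 0.00109 and 0.00298), whereas the record kept by the rule was at 0 in these groups. Leaving out the members at 2 separate levels, an alternative chosen after seeing the data, moved no count by over 1.5 times.

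With each library left out in turn, counts at an unadjusted p under 0.05 ranged from 3 to 16 in AT10, 4 to 11 in AT1 and 2 to 8 in AT01 against FCA. They ranged from 2 to 4 for AT10 against AT1, 0 to 13 in AT10 against AT01 and 1 to 7 in AT1 against AT01. The number past adjustment ranged from 0 to 1 in AT1 against FCA (Sdhd without the third FCA library, Atp5sl without the second AT1 library). Atp5e ranged from -0.28 to 0.21 in AT10 and from -0.30 to 0.19 in AT1, both against AT01, and Ndufa1 from -0.39 to 0.69 in AT10 against AT01. They turned without the third AT01 library, in which both were low. For AT10 against AT1, the count was 3 without AT10 replicate 2 or 3 and 2 without the first AT1 library. For AT10 against AT01 it was 0 without the first and 1 without the second AT10 library. For AT1 against AT01 it was 2 without AT1 replicate 1 or 3 and 3 without the second AT01 library.

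No pairing of the libraries by replicate number was seen. Same-number correlations of deviations ran from -0.105 to 0.0942, and other-number ones from -0.154 to 0.149. With only 3 libraries in a group, each taken from the group mean, such values cannot show that the libraries were unpaired. With the replicate number as a block, the counts were 3 in AT10 against AT1 and 2 in AT1 against AT01, and the other counts stayed within 1.5 times. The cause of these changes was not tested. Without counts of single records, the number of reads behind a value is unknown, and low records such as Atp5s or Uqcrfs1 cannot be given a counting error.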
